A study of Mus musculus with 4 samples.

Results

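Genes of the red cell lineage were followed in cultured fetal liver progenitors that had been infected with either of 2 viruses. The genes are the adult globins Hba-a1 and Hbb-b1, the embryonic globins Hbb-y and Hbb-bh1, the haem synthesis enzyme Alas2, the transcription factors Klf1 and Gata1, the erythropoietin receptor Epor and the transferrin receptor Tfrc. They were taken because fetal liver is a site of red cell formation, so that their level bears on how much RNA of that lineage the cultures still held. All probes that the array names after 1 of these 9 genes were used, which gave 12 of the 39429 probes. The cells were lineage-depleted (Lin-) fetal liver hematopoietic progenitor cells (FL HPCs) from Ebf1-/- embryos on a C57BL/6 background, and every sample therefore lacks Ebf1, the factor on which B cell formation depends. Those of 2 arrays carried the retrovirus MDH1-PGK-GFP without an insert (EMPTY) and those of the other 2 the same virus with Mir195, cloned from human DNA. Each culture grew on OP9 stroma cells with SCF, IL-7 and Flt3-ligand at 10 ng/mL each, for 7 days where the general condition applied, and about 100 ng of RNA was labelled with Cy3. The labels do not say whether the replicates came from separate embryos or cultures, so that the p-values cover the spread between these arrays, which may be technical.

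In red cell formation, GATA1 and KLF1 switch on the globin genes and the enzymes of haem synthesis. Erythropoietin keeps the precursors alive through EPOR, and the transferrin receptor brings in the iron for haem. Haemoglobin joins alpha-type and beta-type chains, of which the embryonic beta-type chains HBB-Y and HBB-BH1 mark the first wave of red cells from the yolk sac, while the fetal liver makes the adult chains. GATA1 and EPOR are also found outside this lineage, GATA1 in megakaryocytes, mast cells and eosinophils, and TFRC is used by dividing cells in general.

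The small RNA that distinguishes the viruses is shown first, as the mouse mature sequence of RefSeq (GRCm38.p6, chr11:70235062-70235082, plus strand), with its seed, bases 2 to 8, in capitals. The Hba-a1 probe and a Hbb-y probe, both 60 bases, are shown in lower case as the array files give them, since they are the letters to which the adult and embryonic chains were hybridized. The 250 bases before the start of Hbb-bt, Hba-a1 and Alas2 are shown because these genes lie on either side of the detection limit below. Capitals mark the letters bound by the regulators measured here and by general factors, namely the GATA box (AGATAA), the CACCC box of KLF1 and related factors (CCACCC), the CCAAT box (CCAAT) and the TATA box (TATAAA), each on either strand and with overlaps allowed.
mmu-miR-195a-5p: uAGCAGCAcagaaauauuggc
Hba-a1 probe A_55_P1962303: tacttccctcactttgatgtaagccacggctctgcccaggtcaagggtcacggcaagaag
Hbb-y probe A_55_P1967481: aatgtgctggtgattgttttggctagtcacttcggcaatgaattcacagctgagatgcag
Hbb-bt (named Hbb-b1 on the array), chr7:103813924-103814173, minus strand: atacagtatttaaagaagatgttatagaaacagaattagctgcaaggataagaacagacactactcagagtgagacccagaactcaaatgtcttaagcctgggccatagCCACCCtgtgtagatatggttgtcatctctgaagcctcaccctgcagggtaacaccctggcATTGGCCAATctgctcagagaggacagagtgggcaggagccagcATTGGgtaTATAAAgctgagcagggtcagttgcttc
Hba-a1, chr11:32283422-32283671, plus strand: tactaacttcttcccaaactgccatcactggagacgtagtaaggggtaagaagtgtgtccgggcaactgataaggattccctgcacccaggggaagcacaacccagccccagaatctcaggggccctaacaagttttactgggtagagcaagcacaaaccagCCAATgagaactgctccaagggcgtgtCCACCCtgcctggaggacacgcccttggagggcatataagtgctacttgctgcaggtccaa
Alas2, chrX:150547167-150547416, plus strand: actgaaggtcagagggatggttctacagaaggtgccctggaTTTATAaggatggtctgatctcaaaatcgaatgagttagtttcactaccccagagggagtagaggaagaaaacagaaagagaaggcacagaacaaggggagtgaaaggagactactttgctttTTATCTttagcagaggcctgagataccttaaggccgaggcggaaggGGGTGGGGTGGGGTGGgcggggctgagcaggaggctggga

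The promoter letters come from RefSeq on GRCm38.p6, where entries matched 8 of the 9 genes, with Hbb-b1 matched through its accession to Hbb-bt. The CACCC box was found in the windows of Hba-a1, Hbb-bt, Hbb-y, Alas2, Epor and Gata1 and in 1 of the 2 windows of Tfrc, against 28.1% of all 32851 promoter windows of that length. The window of Klf1 held none of these letters for the CACCC box and the GATA box but 1 CCAAT box. The GATA box was found in the windows of Alas2 and Epor, against 9.99% of all windows. The CCAAT box was found before Hbb-bt, Hba-a1, Hbb-y and Klf1 and in 1 of the 2 windows of Tfrc. Of all windows, 33.8% held at least 1, and that of Hbb-bt held 3. These matches describe the letters only. Only the exact letters given above were searched, so that a window without a mark may hold another form of a box.

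The arrays were alike in depth, with 23658 to 24671 probes well above background, the scanner software's mark for a spot that clearly exceeds the background around it. All 4 lay on 1 slide with EMPTY and Mir195 at opposite ends, so that virus and place on the slide cannot be told apart. Levels are log2 values from which the array's own 75th percentile was subtracted, so that 0 is a signal of 902 to 1127. Mir195 replicate 2 differed most from the others, with correlations of 0.983 to 0.987 across tested probes against 0.994 to 0.997 among the other 3 arrays, and EMPTY replicate 2 and Mir195 replicate 1 were the closest pair. Of the 12 member probes, 7 were well above background on all 4 arrays, 3 on none, Epor on 3 arrays and a Hbb-y probe on 1. The comparison covered 8 of the 12, from 6 of the 9 genes.

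No erythroid probe passed the test between the viruses. Of the 8 tested, 0 passed the threshold of an adjusted p of 0.05 in limma, 0 reached 0.05 before adjustment, and the smallest adjusted p among them was 0.810. Over all 23731 probes tested, 0 passed as well (0%), with a smallest adjusted p of 0.101, and 1979 reached 0.05 before adjustment. With Mir195, 1 of the 8 was higher and 7 were lower in mean, with a median log2 fold change of -0.13 against 0.01 over all tested probes. Both Mir195 arrays lay below both EMPTY arrays for 2 of the 8, both of them probes of Tfrc, where 14.4% of all tested probes did so. Both lay above for 0 of the 8, against 23.4% of all. With 2 arrays per virus, an exact permutation test over arrays cannot go below a p of 0.333.

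**Figure D1:**
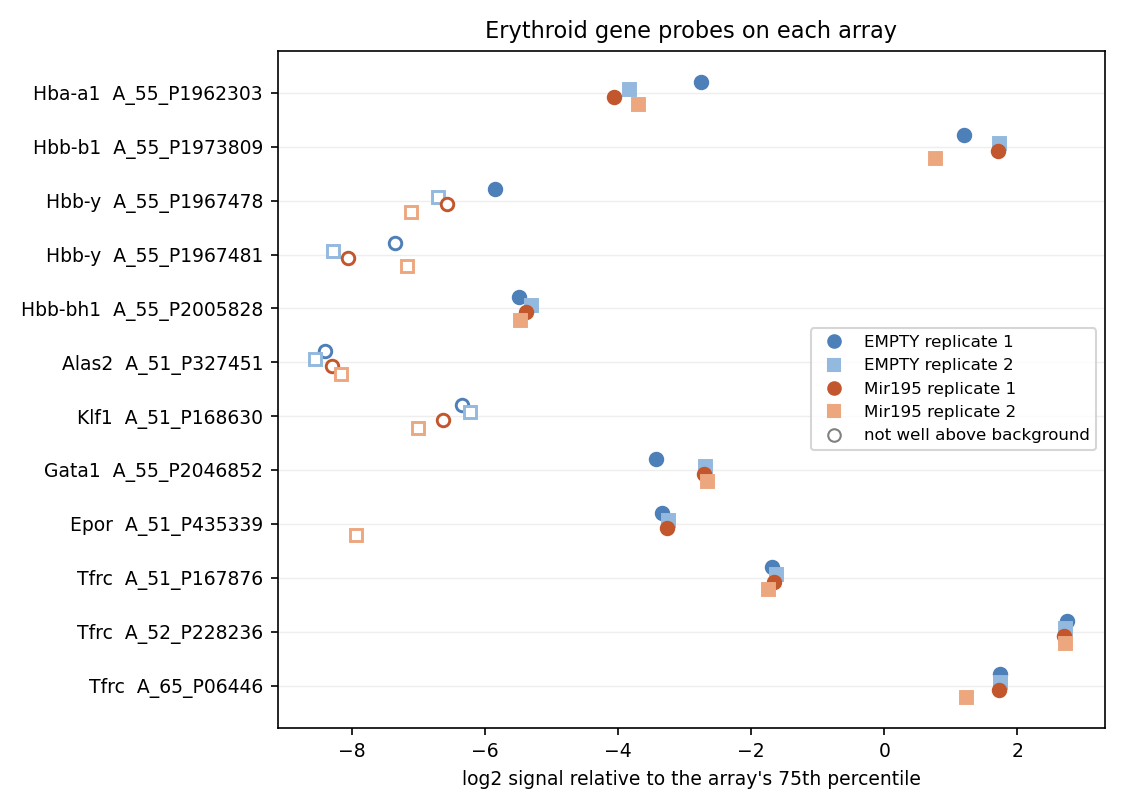
Level of the 12 probes of the 9 genes on the log2 scale, where 0 is the 75th percentile of an array (horizontal axis), with a point for each array, filled where the probe was well above background. The 3 probes with open points only are those of Alas2, Klf1 and 1 of the Hbb-y probes, and the Epor point of Mir195 replicate 2 lies apart at -7.93. Distances between rows are distances between probes and do not rank the genes.

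For both adult globins, the EMPTY arrays differed from each other by more than the means of the viruses did. The Hba-a1 probe (alpha chain, chromosome 11, 32283672 to 32284486) stood at -2.76 and -3.84 with EMPTY and at -4.05 and -3.70 with Mir195. EMPTY replicate 1 was thus the highest and the other 3 lay within a narrow band, with the second EMPTY array between the Mir195 arrays. The difference of Mir195 and EMPTY was -0.58 (SE 0.39, 95% interval -1.59 to 0.43, limma adjusted p = 0.810). Leaving out EMPTY replicate 1 gave -0.04 and leaving out EMPTY replicate 2 gave -1.11, so that the value rests on which EMPTY array is used.

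The Hbb-b1 probe (beta chain, at the gene now named Hbb-bt, chromosome 7, 103812524 to 103813923) gave signals of 2576 and 3396 with EMPTY and of 2940 and 1573 with Mir195, far above the highest of the 153 negative control spots on any array, 33.0. On the log2 scale these were 1.19 and 1.72 with EMPTY and 1.70 and 0.77 with Mir195. Mir195 replicate 2 was the lowest, and the other Mir195 array was within 0.02 of EMPTY replicate 2. The difference was -0.22 (SE 0.37, 95% interval -1.18 to 0.74, limma adjusted p = 0.934). Without Mir195 replicate 2 it turned to 0.25, and without EMPTY replicate 2 to 0.05. The spot lay in the first column of the array, and its 44 bright neighbours within 6 rows and columns were a median of -0.05 from the other arrays on Mir195 replicate 2, where the spot itself was -0.77 away.

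The array also carries a probe each for the second adult alpha gene, Hba-a2, and for a second adult beta gene, Hbb-b2. Hba-a2 stood at -0.78 and -1.82 with EMPTY and -2.14 and -1.50 with Mir195, with EMPTY replicate 1 again the highest. Once each probe was centred on its mean over the 4 arrays, Hba-a1 and Hba-a2 were within 0.17 of each other on every array. Hbb-b2 stood at -3.41 and -2.98 with EMPTY and -3.09 and -4.08 with Mir195, again lowest in Mir195 replicate 2 and within 0.14 of Hbb-b1 after centring. The alpha and beta chains did not follow each other across the 4 arrays, since EMPTY replicate 1 was 1.08 above EMPTY replicate 2 for Hba-a1 and -0.53 from it for Hbb-b1. The longest run of letters shared by the probes of a pair was 6 bases for the alpha and 6 for the beta genes. The adult copies of each chain are nearly the same in their coding part, so that neither signal can be assigned to a single copy with certainty.

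**Figure D2:**
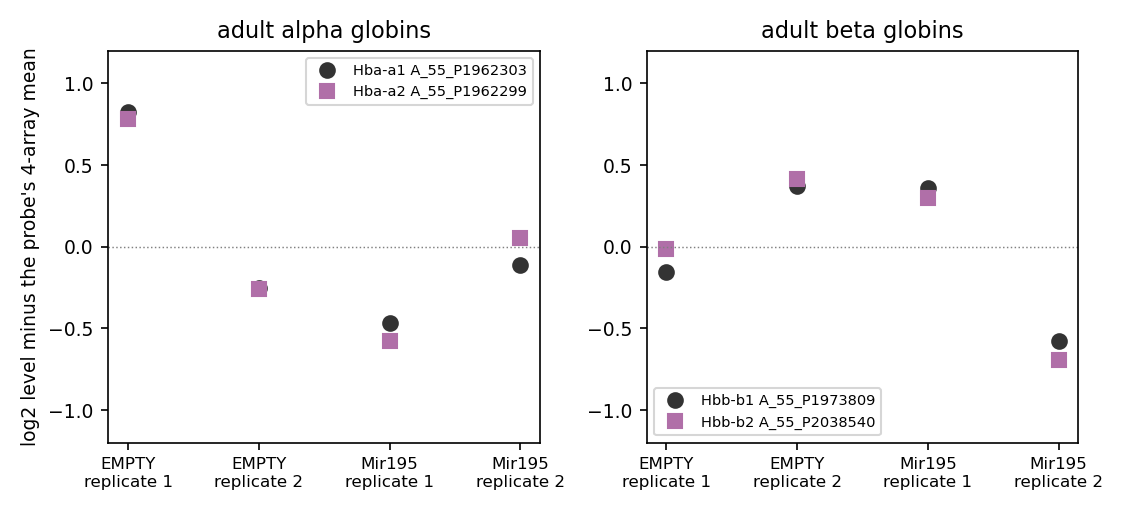
Log2 level of 4 adult globin probes on each array after subtraction of the probe's mean over the 4 arrays (vertical axis), alpha chains on the left and beta chains on the right. Probes of a chain type lie within 0.17 of each other on every array, with EMPTY replicate 1 highest for the alpha and Mir195 replicate 2 lowest for the beta chains.

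Of all 22569 other probes well above background on every array, those whose centred values were nearest to Hba-a1, the member with the largest range among those well above background on all 4 arrays, belonged to Crtam (distance 0.07), Klhl3 (0.08) and Syt13 (0.10). The distance is Euclidean, in log2 units over 4 arrays. Hba-a2 ranked 15 among them with a distance of 0.20. By the same measure, chosen for this pair after its values were seen, Hbb-b2 ranked 6 in likeness to Hbb-b1 with a distance of 0.19. With 4 arrays and this many probes, near neighbours are common.

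The embryonic beta-type globins were at the limit of detection. Hbb-bh1 (chromosome 7, 103841638 to 103843162) gave signals of 25.2 and 26.1 with EMPTY and 21.6 and 20.7 with Mir195. All 4 carried the mark for well above background, but the EMPTY replicate 1 value did not reach the highest negative control spot of its own array, 33.0, while the other 3 exceeded theirs, which were at most 14.8. Relative to the 75th percentile, the groups overlapped at -5.48 and -5.30 with EMPTY and -5.38 and -5.48 with Mir195. The difference was -0.04 (SE 0.13, 95% interval -0.38 to 0.30, limma adjusted p = 0.969).

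The Hbb-y probe A_55_P1967478 (chromosome 7, 103851754 to 103853207) gave signals of 19.5 and 9.90 with EMPTY and 9.46 and 6.68 with Mir195, and only EMPTY replicate 1 was well above background. The other Hbb-y probe, whose letters are shown above, gave 6.90 and 3.31 with EMPTY and 3.38 and 6.40 with Mir195 and was well above background on no array. It was therefore highest on EMPTY replicate 1 and Mir195 replicate 2, and the probes did not rank Mir195 replicate 2 alike. Neither was tested, and no fold is given for Hbb-y.

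Alas2 and Klf1 were well above background on no array. The Alas2 probe (first enzyme of haem synthesis in red cells, chromosome X, 150547417 to 150570622) gave signals of 3.34 and 2.75 with EMPTY and 2.87 and 3.22 with Mir195. These were close to the medians of the negative control spots of the same arrays, 3.44, 2.77, 2.91 and 3.28. The Klf1 probe (chromosome 8, 84901982 to 84905291) gave 13.9 and 13.8 with EMPTY and 9.11 and 7.20 with Mir195. Each lay above the 95th percentile of the negative control spots, which was 3.41 to 4.17, and both Mir195 arrays lay below both EMPTY arrays. As Klf1 was not well above background with either virus, no fold is given and no difference is read from this order. At this signal, neither a level nor a difference was detectable for Alas2.

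Gata1 (chromosome X, 7959260 to 7976663) was measured on every array, with log2 values of -3.43 and -2.70 with EMPTY and -2.71 and -2.66 with Mir195. Only EMPTY replicate 1, the array highest in Hba-a1, stood apart and was the lowest, and the other 3 were within 0.05 of each other. The difference was 0.38 (SE 0.26, 95% interval -0.31 to 1.06, limma adjusted p = 0.821), which became 0.01 with EMPTY replicate 1 left out and 0.74 with EMPTY replicate 2 left out. Markers of the other lineages that use GATA1 were present in part. Of the mast cell and basophil list, 4 of 11 genes were well above background on all 4 arrays and 5 on none, with a summed level of 4.07 to 4.201 times the 75th percentile with EMPTY and 4.45 to 4.74 with Mir195. Without Kit, a gene of progenitors in general and the brightest of the list, left out after the values were seen, the sums were 1.26 and 1.38 with EMPTY and 1.29 and 1.08 with Mir195. Of the 4 tested, 2 were higher and 2 lower in mean. The mast cell protease Cpa3 was lower on both Mir195 arrays, by a mean of -0.65 (SE 0.23, limma adjusted p = 0.579). Tpsb2 differed by 0.04 (SE 0.17) and Hdc by -0.26 (SE 0.19), with overlapping groups for both. The IgE receptor genes Ms4a2 and Fcer1a and the basophil protease Mcpt8 were well above background on no array. Of 9 megakaryocyte genes, 5 were well above background on all 4, among them Pf4 and Gp9, with a summed level of 0.554 to 0.635 with EMPTY and 0.645 to 0.648 with Mir195. Without Gp9, the brightest of that list, the sums were 0.312 and 0.357 with EMPTY and 0.308 and 0.332 with Mir195. Of the 6 tested, 4 were higher in mean and 2 lower, namely Vwf at -0.13 (SE 0.15) and Itga2b. Itga2b stood at -5.39 and -5.15 with EMPTY and at -5.95 and -8.03 with Mir195, a mean difference of -1.72 (SE 0.69, limma adjusted p = 0.623). It was well above background on 3 arrays and entered the comparison through the EMPTY arrays. Its value on Mir195 replicate 2 was not well above background, so that no size is read from this mean. Of 4 eosinophil genes, Prg2 and Il5ra were well above background on all 4 arrays and Epx and Ccr3 on none. Their sums were 0.0750 to 0.0806 with EMPTY and 0.0769 to 0.0881 with Mir195. What part these cells have in the Gata1 signal was not tested. RNA of whole cultures cannot tell fewer cells of a type from less RNA per cell.

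Epor (chromosome 9, 21958897 to 21963576) was steady on 3 arrays and nearly without signal on the fourth. The log2 values were -3.35 and -3.25 with EMPTY, -3.26 with Mir195 replicate 1 and -7.93 with Mir195 replicate 2. The first 3 lay within 0.10 of each other and the last was below all of them, which gave a mean difference of -2.30 (SE 1.52, 95% interval -6.28 to 1.68, limma adjusted p = 0.810). Epor is measured by a single spot, at row 58 and column 58 of the array. Its mean brightness on Mir195 replicate 2 was 41.3 over a local background of 43, against 142 to 159 on the other arrays, and it was close to the lowest of that array's negative control spots, 40.7, whose median was 57.4.

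That array held 59 dark spots, defined as spots under 5 units above their local background whose mean log2 signal exceeded 6 on the other 3 arrays. The other arrays held 0 each by the same rule. The dark spots lay along a curved line between rows 11 and 64 and columns 57 and 81, in a box that holds 3% of the array's spots, and 11 of the 81 bright spots within 6 rows and columns of the Epor spot were dark, itself included. It was the only dark spot among the 21 spots of the 9 genes, and no other gene of the red cell lists below had 1. With the dark spots left out, an alternative chosen after the data were seen, the Epor difference was 0.04 (SE 0.17, limma adjusted p = 0.981). Without Mir195 replicate 1, in contrast, where 3.81% of all probes passed, Epor was -4.63 (SE 0.17, limma adjusted p = 3.15e-05), a call that rests on the dark spot alone for Mir195 and on the assumption that this lone array varies like the EMPTY arrays.

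**Figure D3:**
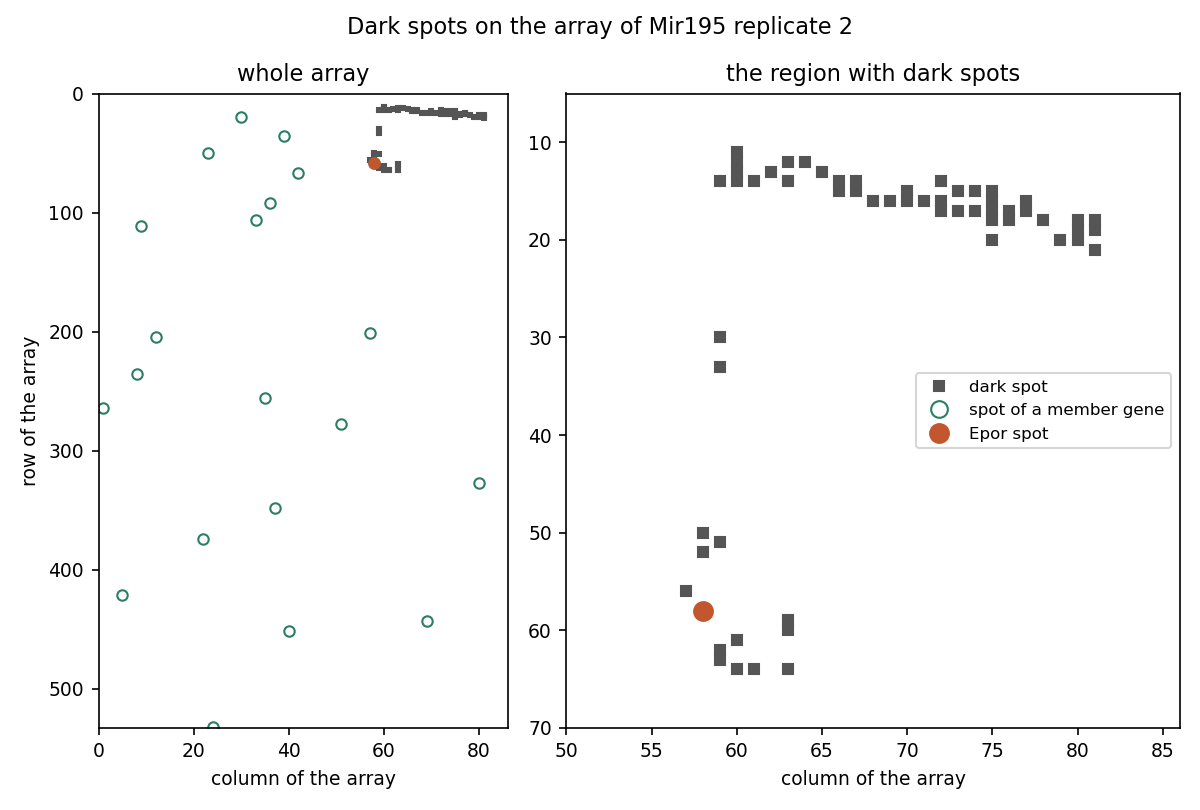
Position by row and column of the 59 dark spots on the array of Mir195 replicate 2 (squares), with the 21 spots of the erythroid genes (circles) and the Epor spot (filled circle), for the whole array on the left and the region of dark spots on the right. The dark spots form a line through rows 11 to 64, and of the erythroid genes only the Epor spot lies on it.

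Tfrc (chromosome 16, 32608896 to 32632794) is covered by 3 probes. Probe A_52_P228236, printed in 10 spots per array, had the smallest range of the 12 probes over the arrays. It stood at 2.75 and 2.72 with EMPTY and at 2.71 and 2.71 with Mir195, and its 10 spots had an SD of 0.04 to 0.08 within an array. Both Mir195 arrays were below both EMPTY arrays, but the mean difference, -0.03 (SE 0.11, 95% interval -0.32 to 0.27, limma adjusted p = 0.976), was smaller than the SD among spots. Probe A_51_P167876 stood at -1.69 and -1.62 with EMPTY and at -1.66 and -1.75 with Mir195, with a difference of -0.05 (SE 0.12, limma adjusted p = 0.957). Probe A_65_P06446 stood at 1.74 and 1.74 with EMPTY, 1.72 with Mir195 replicate 1 and 1.23 with Mir195 replicate 2, with a difference of -0.26 (SE 0.20, limma adjusted p = 0.832). The drop on the last array was not shared by the other Tfrc probes, and the local background of that spot was 51 there against 39.5 to 40 on the other arrays. The difference of this probe was -0.02 once Mir195 replicate 2 was left out and -0.51 once Mir195 replicate 1 was, with neither past the threshold. Dividing cells use TFRC, and all 11 genes of a proliferation list were well above background on every array, with sums of 208 to 229 times the 75th percentile with EMPTY and 220 to 232 with Mir195.

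**Figure D4:**
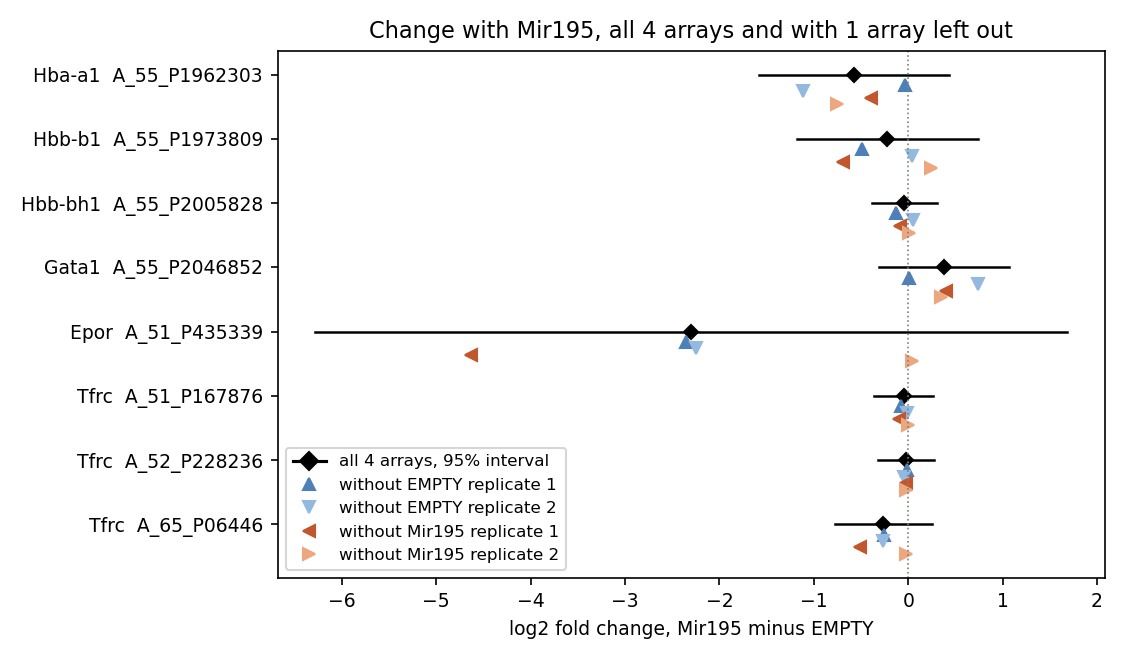
Log2 fold change of Mir195 against EMPTY (horizontal axis) for the 8 tested probes, with the limma 95% interval from all 4 arrays (diamond and line) and the value with each array left out (triangles). Every interval includes 0, and the triangles of Epor run from -4.63 to 0.04.

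The other genes of the red cell programme were examined in 6 classes of 91 names, of which 78 had a probe and 59 were tested. Of these, 0 passed the threshold in limma, 5 had an unadjusted p under 0.05, 23 were higher and 36 lower in mean with Mir195, and the median log2 fold change was -0.04 against 0.01 over all probes, of which 12589 were higher and 11142 lower. The split depended on the scaling, with 16 higher and 43 lower under median scaling, where 7856 of all probes were higher and 15875 lower, and on the arrays, with 30 higher and 29 lower without EMPTY replicate 2. The groups did not overlap for 24 genes, 12 in each direction, beside 23.4% higher and 14.4% lower of all probes.

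Among the globins and their chaperone, 2 of the 4 with a probe were tested, Hba-a2 and Hbb-b2, both lower in mean and neither called, at -0.52 (SE 0.41) and -0.40 (SE 0.37). The embryonic alpha-type globin Hba-x and the alpha chain chaperone Ahsp were well above background on no array. The enzymes and carriers of haem synthesis other than Alas2 were all measured, 10 of 10, with 2 higher and 8 lower and a range of -0.17 to 0.17. Fech, which inserts the iron into haem, was at 0.17 (SE 0.18), the glycine carrier Slc25a38 at -0.17 (SE 0.13), and Ppox, which acts in the step before Fech, at 0.15 (SE 0.13).

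Among 9 iron genes tested, 7 were higher and 2 lower. The iron exporter Slc40a1 had values of -6.14 and -6.26 with EMPTY and -5.72 and -5.06 with Mir195, without overlap. Its difference was 0.81 (SE 0.25, limma adjusted p = 0.539). Slc40a1 passed the scanner software's mark on each array, but with EMPTY it was near Klf1, which did not, at -6.34 and -6.22. On EMPTY replicate 1 it lay below Hbb-bh1, at -5.48, which did not reach that array's highest negative control spot. The size of the Slc40a1 difference is therefore uncertain. The mitochondrial iron carrier Slc25a37 differed by 0.39 (SE 0.14, limma adjusted p = 0.579), and its other probe by 0.05 (SE 0.12). Ireb2, which senses iron, was at 0.28 (SE 0.18). Without Mir195 replicate 1, where a lone Mir195 array is assumed to vary like the EMPTY arrays and 3.81% of all probes passed, Slc40a1 passed as 1 of the 59, at 1.14 (SE 0.17, limma adjusted p = 0.0241).

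Of the genes of the red cell membrane and its skeleton, 8 of 19 with a probe were tested, 5 higher and 3 lower. The Rh-associated protein Rhag, the spectrins Spna1 and Spnb1, ankyrin Ank1 and Epb4.2 were well above background on no array. The water channel Aqp1 was at -2.46 and -2.03 with EMPTY and -1.45 and -1.61 with Mir195, without overlap, with a difference of 0.72 (SE 0.19, limma adjusted p = 0.530). The blood group gene Ermap was at 0.35 (SE 0.15), while its other probe was at -0.09 (SE 0.26), and the anion exchanger Slc4a1 was at -0.27 (SE 0.23).

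Of 12 regulators tested, 5 were higher and 7 lower. Tal1, a partner of GATA1, differed by 0.45 (SE 0.17, limma adjusted p = 0.584), and Zfpm1, the cofactor FOG1 of GATA1, by -0.30 (SE 0.13) and -0.24 (SE 0.14) on its 2 probes. Bcl11a, which silences embryonic and fetal globins and also serves lymphoid progenitors, was at 0.24 (SE 0.13). Of 18 genes of erythropoietin signalling and late maturation, 4 were higher and 14 lower, with the signalling inhibitor Cish at -0.43 (SE 0.24), the carbonic anhydrase Car1 at 0.37 (SE 0.17) and the biliverdin reductase Blvrb at -0.34 (SE 0.12). None of these passed the threshold in limma.

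**Figure D5:**
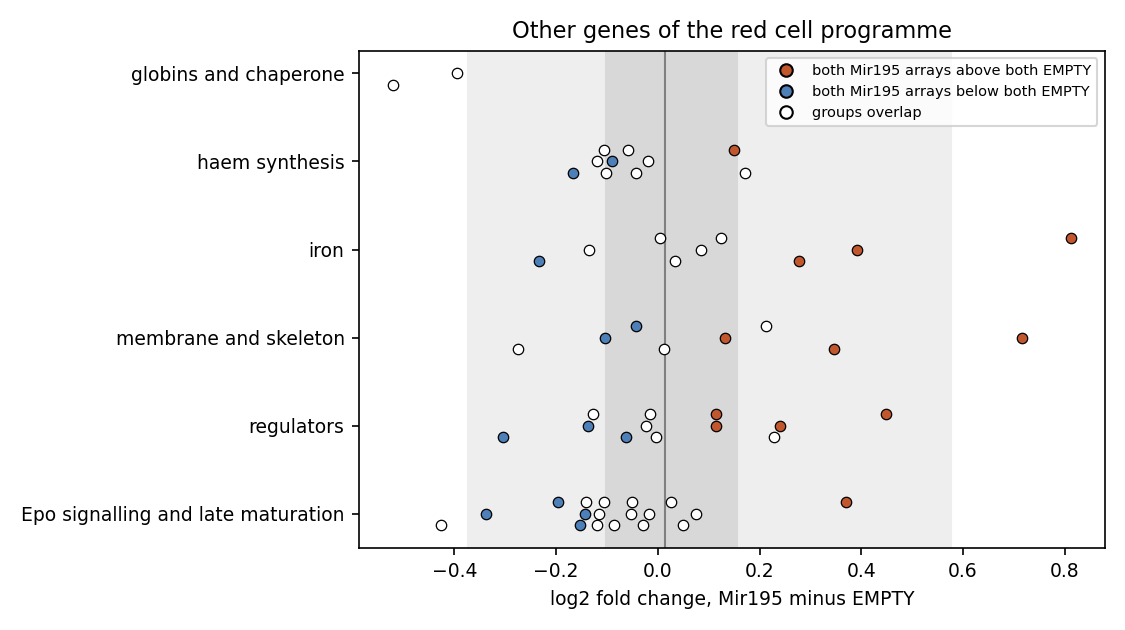
Log2 fold change of Mir195 against EMPTY (horizontal axis) of the 59 other genes of the red cell programme, a point per gene in 6 classes, coloured where the groups do not overlap. The bands hold the middle 50% and 90% of all 23731 tested probes and the line is their median, 0.01. The points spread from -0.52 to 0.81, and none passed the threshold.

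Other cells that a fetal liver culture can hold were checked by their markers. The hepatocyte genes Afp, Alb, Ttr and Apoa1 were well above background on no array, although Apoa2 and Ahsg were on all 4. The list summed to 1.39 to 1.45 times the 75th percentile with EMPTY and 1.23 to 1.37 with Mir195. Without Apoa2, the brightest of the list, the sums overlapped, at 0.139 and 0.297 with EMPTY and 0.148 and 0.088 with Mir195. Genes of the macrophages around which red cells mature summed to 3.07 to 3.65 with EMPTY and 3.04 to 3.20 with Mir195, with 4 of 8 well above background on all arrays and Cd163 on none. Without Emr1, the brightest of them, the sums were 1.22 and 1.25 with EMPTY and 1.26 and 1.33 with Mir195. Of the 6 tested, 4 were higher in mean and 2 lower, namely Emr1 at -0.21 (SE 0.18) and Spic at -0.29 (SE 0.31). C1qa, C1qb and Cd68 were higher on both Mir195 arrays, by 1.43 (SE 0.23), 0.39 (SE 0.14) and 0.07 (SE 0.12), with none past the threshold. C1qa was well above background on only 2 of the 4 arrays, both of them Mir195, and entered the comparison through these. With EMPTY it was not detected, so that no size is read from its difference. Genes of the OP9 stroma, all 8 measured on every array, summed to 21.9 to 22.3 with EMPTY and to 18.2 and 24.7 with Mir195. The higher value was in Mir195 replicate 2, the array lowest in Hbb-b1. Without Thy1, the brightest of the list and the only 1 of the 8 that was lower in mean with Mir195, the sums were 10.1 and 11.0 with EMPTY and 9.66 and 17.8 with Mir195. The lymphoid progenitor genes Il7r and Flt3 were measured on every array, and the lymphoid list summed to 38.2 to 38.9 with EMPTY and 40.0 to 45.0 with Mir195. Of the 83 genes of the marker lists with a probe, 55 were tested and 0 passed the threshold in limma. The part of these cells in the erythroid values was not tested.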

How the data were processed

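RNA of 4 samples was hybridized to Agilent mouse arrays in 1 colour, and each was placed in the EMPTY or Mir195 group by its title. For every spot, the authors deposited the intensity from Agilent Feature Extraction, for which the submitters' processing notes give version 11.5.1.1, after background subtraction and detrending, with small surrogate values for dim spots. A matrix of log2 values, scaled by the authors to each array's 75th percentile, was deposited too, and it correlated at 0.998 with the values computed here.

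The members and gene lists were chosen with earlier results of these data known. Outlier spots were left out, spots of a probe averaged as log2 intensity, and the 75th percentile over all 39429 probes subtracted per array. A probe was tested if, with either virus or both, most of its spots were well above background on each array. The viruses were compared in R 4.3.3 with limma 3.58.1 (lmFit, then eBayes) after reading with version 1.17.8 of data.table, two-sided, with Benjamini-Hochberg adjustment over all 23731 probes and a threshold of 0.05. The fit was tested on simulated data. Of a gene in a list, the tested probe of highest mean signal was used. Named were all member probes, the list genes past the threshold, the 3 of each class with the largest change among those measured on all arrays, and the first markers of each list, of which some are not reported here. Summed levels add each marker's brightest probe.

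The alternatives were the normexp correction with an offset of 50, quantile and median scaling, the 75th percentile over detected probes, the authors' table, filters on dim probes that were looser or stricter, a robust eBayes with trend, a block for the replicate number, fits that left out each array, and the methods' t-test on log2 ratios of same-numbered replicates. Leaving out dark spots and crossing the pairs were chosen after the data were seen. Arrays give no read depth, and their number limits the precision.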

Additional observations from a re-analysis of the deposited data

How the results depend on the processing

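Of 111 values of single member probes under 14 alternatives, 102 kept their direction and their side of the threshold. Part of this was fixed in advance. The looser and stricter filters, the robust eBayes with trend and the replicate block refit the same values, so that no fold change could move there. With the normexp correction, the difference of Tfrc probe A_51_P167876 turned to 0.027 and that of Hbb-bh1 to 0.18. Without the dark spots, Epor turned to 0.035, and 2 member probes were higher with Mir195 in place of 1. With the normexp correction 3 of the 8 member probes were higher with Mir195, and without a filter on dim probes, which adds the other 4, 3 of 12 were higher and 9 lower. With each array left out in turn, Epor ranged from -4.63 to 0.035, Hbb-b1 from -0.69 to 0.25 and Hbb-bh1 from -0.13 to 0.051. In these fits 0 to 1 member probes and 0 to 1 companion genes were called, 1 to 4 member probes were higher and 4 to 7 lower, and 0 to 904 of all probes were called, the 904 without Mir195 replicate 1. Median scaling called 3 of all probes, none of them a member or companion gene. The cause of these shifts was not tested, except that the Epor spot is dark on Mir195 replicate 2.

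With the replicate number as a block, 5 of all probes were called and 0 member probes. The numbers share no stated source, and the deviations of same-numbered arrays correlated at -0.10 across probes, so that a crossed pairing was also fitted, which called 0 of all probes. The methods' t-test found 1134 probes at its threshold and 0 after adjustment, with 0 member probes at either. Signal over background limits Alas2, Klf1 and Hbb-y, which were outside the comparison for that reason.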
